A study of Mus musculus with 11 samples.

Results

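The hearts of mice that lack a copy of the elastin gene were examined here through 10 genes of the elastic fibre: elastin itself (Eln) and 9 partners that lie outside the deletion, Fbln5, Fbn1, Efemp2, Lox, Loxl1, Emilin1, Mfap4, Mfap5 and Ltbp4. The 10 genes were taken by name from the 22608 genes of the heart count table, through their Ensembl identifiers in GENCODE mouse release 21, and all 10 were abundant enough to be among the 11319 genes tested. The table covers 11 male mice aged 8 to 16 weeks on a C57BL/6J background. The 6 CD (complete deletion) mice carry on a single chromosome 5 a deletion of the interval that is lost in Williams-Beuren syndrome, from Gtf2i to Fkbp6, and the 5 WT mice are littermates with both copies. JZL184, an inhibitor of the enzyme that breaks down the endocannabinoid 2-AG, was injected daily for 10 days at 8 mg/kg into 3 WT mice (WT JZL184) and 3 CD mice (CD JZL184), and vehicle was given to 2 WT mice (WT VEH) and 3 CD mice (CD VEH). The treatment field of the labels names the control mice untreated while their titles name vehicle. The deletion is constitutive, so every cell of a CD mouse carries it. The labels name the ventricle as the source. For heart RNA measured by PCR, the methods describe hearts freed of atria and great vessels, and the sequencing methods do not repeat this.

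Elastic fibres let arteries, lungs and heart valves stretch and recoil. Soluble tropoelastin, the product of Eln, is secreted, brought onto a scaffold of fibrillin microfibrils by fibulins and related proteins, and cross-linked by lysyl oxidases into insoluble elastin. Loss of a copy of Eln is the recognised cause of supravalvular aortic stenosis, the arterial narrowing of Williams-Beuren syndrome. Most elastin is laid down around birth and its mRNA is low in adults, and in a heart it is made mainly by the smooth muscle cells of vessels and by fibroblasts. In RNA from whole tissue, fewer cells of a type and less RNA per cell cannot be told apart.

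Levels are given as CPM after TMM normalization, a scaling of each library for its size and composition, in the order of the letters of the mice (C and D in WT VEH, A, B and D in WT JZL184, and A, C and E in each CD group). Depth was 69660329 to 92251550 counts per mouse, of which 36.4% to 46.6% came from mitochondrial genes, so 3 counts correspond to 0.0305 to 0.0433 CPM and all 10 genes were far above that. The mitochondrial share was 39.4% to 41.2% in WT VEH, 45% to 46.6% in WT JZL184, 43.5% to 44.7% in CD VEH and 36.4% to 40.1% in CD JZL184, so it was higher with JZL184 in WT mice and lower with it in CD mice, as were the log2 fold-changes of the members described below in those comparisons. Cardiomyocyte markers summed to 31900 to 32400 CPM in WT VEH, 23200 to 31600 CPM in WT JZL184, 28000 to 30400 CPM in CD VEH and 30800 to 32700 CPM in CD JZL184. Adipocyte markers summed to 0.124 to 0.188, 0.143 to 0.38, 0.48 to 1.75 and 0.257 to 1.2 CPM in these groups. CD VEH mouse A stood apart from its own group, with a chi-square per gene against sampling noise of 125 and 122 to the other CD VEH mice, where the pairs within the other groups and the remaining CD VEH pair gave 22.6 to 89.1. Results on Eln are therefore also given without it.

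Promoters of 2 partners are shown because their genes are among those whose response to JZL184 differed most clearly between genotypes, as described further on, and because neither of the 2 windows overlaps another exon. Of the 10 genes, 5 have an entry in the RefSeq promoter table for GRCm38.p6. Each run is the 250 bases before the gene start of RefSeq, which differs by some bases from the GENCODE start that the gene positions in the text use, read 5′ to 3′ on the strand of the gene, at chr12:101819120-101819369 on the minus strand for Fbln5 and chr19:5473696-5473945 on the plus strand for Efemp2. Capitals mark the GC box letters GGGCGG or, on the other strand, CCGCCC.
Fbln5: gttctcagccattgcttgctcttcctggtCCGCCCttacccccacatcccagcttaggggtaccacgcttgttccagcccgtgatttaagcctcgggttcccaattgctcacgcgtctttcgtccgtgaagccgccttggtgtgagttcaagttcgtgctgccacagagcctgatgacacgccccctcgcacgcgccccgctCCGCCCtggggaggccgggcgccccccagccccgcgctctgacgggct
Efemp2: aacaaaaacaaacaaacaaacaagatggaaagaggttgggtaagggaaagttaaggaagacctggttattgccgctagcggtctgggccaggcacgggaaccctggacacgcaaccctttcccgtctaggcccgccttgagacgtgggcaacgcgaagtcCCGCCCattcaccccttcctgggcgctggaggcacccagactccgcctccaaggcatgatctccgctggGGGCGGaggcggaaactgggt
Both windows held 2 GC boxes and no TATAAA or TTTATA. Among the 32851 promoters of the table, 32.7% held a GC box and 12.4% held TATAAA or TTTATA in a window of the same length, so these letters are common and describe the sequence only.

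Eln was the member whose level separated the genotypes. The gene lies on chromosome 5 (134702593-134747323, minus strand, GRCm38) within the deletion. Its level was 34.7 and 36.3 CPM in WT VEH, 37.6, 52.4 and 42.6 CPM in WT JZL184, 15.7, 21.5 and 26.4 CPM in CD VEH, and 12, 17.8 and 16.8 CPM in CD JZL184. Every CD mouse was below every WT mouse, with a gap between 26.4 and 34.7 CPM. Averaged over both treatments, the log2 fold-change of CD against WT was -1.12 (SE 0.14, edgeR quasi-likelihood test, adjusted p = 0.00194), a ratio of 0.459 with a 95% interval of 0.372 to 0.566 that holds the 0.5 of a single copy. Without CD VEH mouse A it was -1.04 (edgeR adjusted p = 0.00199). The averaged ratio of 0.459 is the midpoint, on the log2 scale, of unlike values. Under vehicle the ratio was 0.598 (95% interval 0.439 to 0.815), an interval that holds 0.5. Under JZL184 it was 0.352 (95% interval 0.265 to 0.469), an interval that lies below 0.5.

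**Figure D1:**
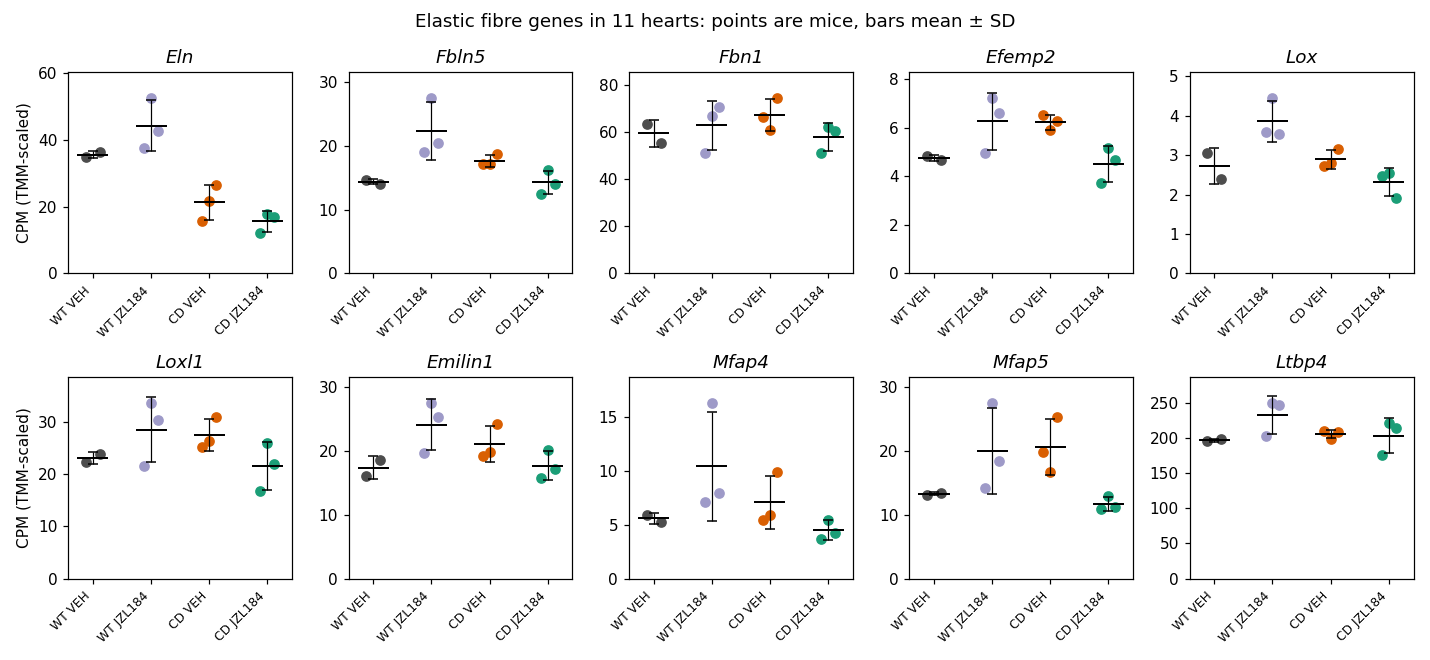
TMM-scaled CPM (vertical axes, from 0) of the 10 genes in the 4 groups; each point is a mouse, and bars give the mean and SD of 2 WT VEH mice and 3 mice in each other group. The CD points of Eln, at 12 to 26.4 CPM, sit below all its WT points, and for the 9 partners the genotypes overlap when the treatments are pooled.

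None of the 9 partners was called in the genotype effect averaged over treatments, so 1 of 10 members was called, beside 1.09% of all tested genes in either direction and 0.671% for lower genes. In the 11 fits without a mouse the member called was Eln each time, and the share of all genes called ran from 0.353% (without WT VEH mouse C or D) to 2.29% (without WT JZL184 mouse B). Eln was likewise the single member of which all 6 CD mice lay below all 5 WT mice (0.592% of tested genes did so). The partners' averaged log2 fold-changes ran from -0.43 for Mfap4 (SE 0.23, edgeR adjusted p = 0.436) to 0.03 for Fbn1 (SE 0.09, edgeR adjusted p = 0.932). Their intervals differed in width. For Ltbp4 the 95% interval of the ratio was 0.856 to 1.07 and for Fbn1 0.889 to 1.17, whereas Mfap4, at 0.524 to 1.05, would allow a level close to that of a gene with a lost copy. Lox had the smallest unadjusted p among the partners (-0.32 on the log2 scale, SE 0.11, edgeR quasi-likelihood adjusted p = 0.205). The median over the 10 members was -0.08, against 0 over all tested genes. This effect is the midpoint of the genotype effects under vehicle and under JZL184. All 9 partners had positive estimates under vehicle and negative ones under JZL184, so opposite values partly cancel in their averages. The median over the members was 0.27 under vehicle and -0.55 under JZL184, where 7 of 10 members were called lower. The share of all tested genes called was 30.4% and 38.3% in these comparisons.

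**Figure D2:**
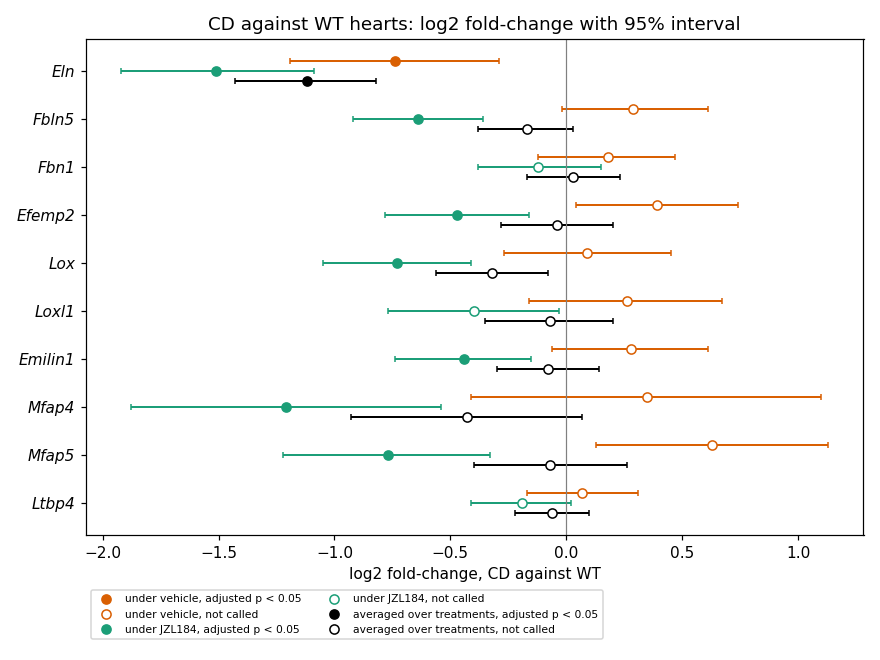
log2 fold-change of CD against WT (horizontal axis) with 95% intervals for the 10 genes, under vehicle, under JZL184 and averaged over treatments; filled points are called at an adjusted p under 0.05. Averaged over treatments, Eln at -1.12 is the filled point, and the partners lie between -0.43 and 0.03.

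The size of the Eln difference was compared with that of its neighbours in the deletion. Of 25 genes of the table that lie in the interval, 14 were tested, and the 13 others were lower in CD mice in every genotype comparison. Not every gene at its edge was lower. Fkbp6, the last gene of the interval and too low to be tested, was at 0.742 to 1.1 CPM in CD mice and 0.0124 to 0.0702 CPM in WT mice, and Trim50, a ubiquitin ligase gene that lies just past it, was at 5.64 to 6.89 CPM in CD mice and at most 0.116 CPM in WT mice. Under vehicle the log2 fold-changes of the 13 ran from -1.44 to -0.58 with a median of -1.02, and Eln at -0.74 (SE 0.20) was less reduced than 11 of them. Under JZL184 they ran from -1.46 to -0.27 with a median of -0.89, and Eln at -1.51 (SE 0.19) was below all 13. Averaged over treatments their median was -0.95 (-1.10 to -0.66) and Eln at -1.12 was again below all 13, although its interval of -1.43 to -0.82 holds that median. This rank did not hold in every fit, and the nearest genes were at -1.46 (Clip2) under JZL184 and -1.10 (Baz1b) in the average, both within the interval of Eln. It also moved with the cell type marker levels added as covariates after seeing the data. With the fibroblast, endothelial and smooth muscle level, 4, 12 and 0 of the 13 were below Eln under JZL184, and 2, 1 and 0 in the average. Eln was below all 13 in 4 of 6 fits without a mouse under JZL184 and in 7 of 11 in the average, where without CD VEH mouse A it was at -1.04 and Baz1b at -1.10. In the other 6 fits a single gene was below Eln. With all mice and no covariate, the SE of Eln was larger than that of each of the 13 under vehicle, under JZL184 and in the average. In the average it was 0.14 against at most 0.08. Clip2, which lies in the same interval and codes for a microtubule-binding linker protein, had the same order of changes, with -0.58 under vehicle and -1.46 under JZL184. Baz1b, a chromatin remodelling gene of the interval, had the opposite order, with -1.44 and -0.75. Of the 13, 8 were less reduced under JZL184 than under vehicle and 5, like Eln, were more reduced.

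**Figure D3:**
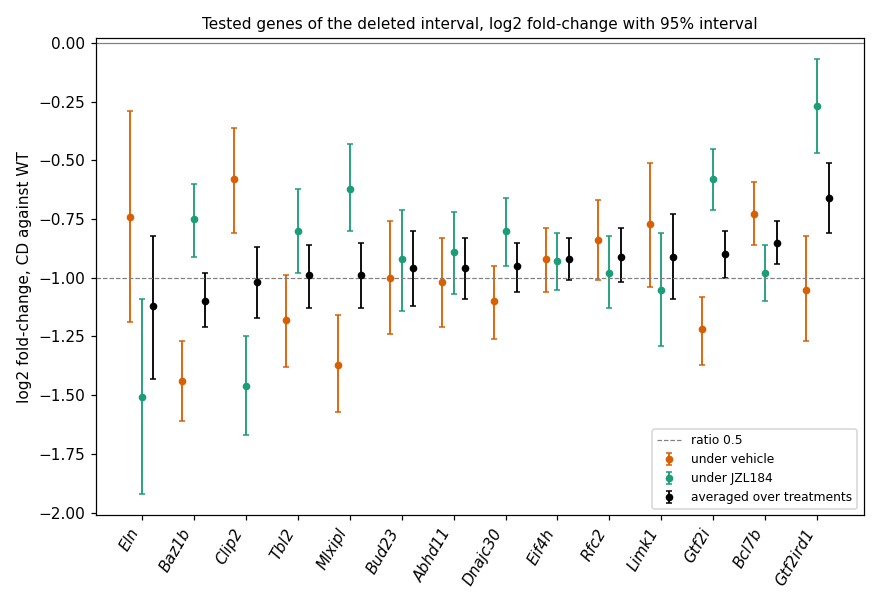
log2 fold-change of CD against WT (vertical axis) with 95% intervals for the 14 tested genes of the deleted interval, under vehicle, under JZL184 and averaged; the dashed line is a ratio of 0.5. Eln has the widest intervals, with estimates of -0.74, -1.51 and -1.12.

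Under vehicle, the comparison that addresses the basal genotype difference, 1 of the 10 members was called, beside 30.4% of all tested genes, with 15.4% called lower and 15% higher. Eln was lower in CD VEH than in WT VEH by a ratio of 0.598 (95% interval 0.439 to 0.815, log2 fold-change -0.74, edgeR adjusted p = 0.0201). The call was lost without CD VEH mouse A (-0.57, edgeR adjusted p = 0.0586), without WT VEH mouse C (-0.77, edgeR adjusted p = 0.0916) and without WT VEH mouse D (-0.71, edgeR adjusted p = 0.0997). All 9 partners had positive log2 fold-changes, from 0.07 for Ltbp4 to 0.63 for Mfap5 (SE 0.23, edgeR adjusted p = 0.057), and none was called. For 6 partners every CD VEH mouse was above both WT VEH mice, beside 32.5% of tested genes. The median over the members was 0.27, against 0.01 over all tested genes.

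Under JZL184, 7 of the 10 members were lower in CD mice and none was higher, beside 38.3% of tested genes called in either direction and 20.1% called lower. The median over the members was -0.55, against 0 over all tested genes. Eln fell to a ratio of 0.352 (95% interval 0.265 to 0.469, edgeR adjusted p = 0.000508), an interval that lies below 0.5, and stayed called without each mouse in turn (-1.62 to -1.35). Fbln5, Efemp2, Lox, Emilin1, Mfap4 and Mfap5 were also called, and Fbn1, Loxl1 and Ltbp4 were not. For 5 members, Eln, Fbln5, Lox, Mfap4 and Mfap5, every CD JZL184 mouse was below every WT JZL184 mouse, beside 24.3% of tested genes. Efemp2 and Emilin1 overlapped between the groups and each lost its call when any of CD JZL184 mouse A, CD JZL184 mouse E, WT JZL184 mouse B or WT JZL184 mouse D was left out (Efemp2 -0.49 to -0.35, edgeR adjusted p = 0.0522 to 0.089; Emilin1 -0.42 to -0.34, edgeR adjusted p = 0.067 to 0.0883).

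The partners that bring tropoelastin to the fibre are Fbln5, Efemp2 and Ltbp4. Fbln5 (chromosome 12, 101746565-101819055, minus strand) codes for fibulin-5, which binds tropoelastin and lysyl oxidase-like enzymes. It was at 14.7 and 14.1 CPM in WT VEH, 19.0, 27.5 and 20.4 CPM in WT JZL184, 17.1, 17.1 and 18.7 CPM in CD VEH, and 12.5, 16.2 and 14.1 CPM in CD JZL184. WT JZL184 was above WT VEH in every mouse (0.63 on the log2 scale, SE 0.15, edgeR adjusted p = 0.0101). CD JZL184 was below CD VEH in every mouse, which did not pass the test (-0.30, SE 0.13, edgeR adjusted p = 0.0857). CD JZL184 against WT JZL184 gave -0.64 (SE 0.13, edgeR adjusted p = 0.00319). The rise in WT mice lost its call without either WT VEH mouse (0.66 without mouse C, edgeR adjusted p = 0.0672, and 0.60 without mouse D, edgeR adjusted p = 0.0727).

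Efemp2 (chromosome 19, 5473954-5482517, plus strand) codes for fibulin-4, which ties lysyl oxidase to tropoelastin. It was at 4.84 and 4.67 CPM in WT VEH, 4.94, 7.22 and 6.62 CPM in WT JZL184, 6.52, 5.90 and 6.27 CPM in CD VEH, and 3.71, 5.16 and 4.67 CPM in CD JZL184. Each CD JZL184 mouse was below each CD VEH mouse (-0.46, SE 0.14, edgeR adjusted p = 0.028), a call lost when CD JZL184 mouse A or E, or CD VEH mouse A or E, was left out (-0.49 to -0.34, edgeR adjusted p = 0.0637 to 0.103). Its gene overlaps Mus81 on the opposite strand, which averaged 1225 counts per mouse, and whether counting used strand is not given in the sources used here, so its level may hold reads of Mus81.

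Ltbp4 (chromosome 7, 27305136-27337692, minus strand) codes for a TGF-beta binding protein that works with fibulin-5. It was at 195 and 198 CPM in WT VEH, 202, 249 and 247 CPM in WT JZL184, 210, 199 and 208 CPM in CD VEH, and 175, 221 and 214 CPM in CD JZL184. The 4 groups lay close together, no comparison of Ltbp4 was called, and in CD mice the log2 fold-change of JZL184 against vehicle was -0.02 (SE 0.10).

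The cross-linking enzymes are Lox and Loxl1. Lox (chromosome 18, 52516067-52529867, minus strand), lysyl oxidase, was at 3.05 and 2.40 CPM in WT VEH, 3.59, 4.45 and 3.54 CPM in WT JZL184, 2.72, 2.80 and 3.16 CPM in CD VEH, and 2.48, 2.56 and 1.91 CPM in CD JZL184. Every WT JZL184 mouse was above every other mouse of the study. The rise over WT VEH was 0.50 on the log2 scale (SE 0.17, edgeR adjusted p = 0.041), and it was lost without WT JZL184 mouse B (0.39, edgeR adjusted p = 0.12), WT VEH mouse C (0.68, edgeR adjusted p = 0.0733) or WT VEH mouse D (0.34, edgeR adjusted p = 0.286). CD JZL184 against WT JZL184 gave -0.73 (SE 0.15, edgeR adjusted p = 0.00337).

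Loxl1 (chromosome 9, 58287738-58313186, minus strand), the lysyl oxidase-like enzyme that fibulin-5 binds, was at 22.3 and 23.9 CPM in WT VEH, 21.6, 33.6 and 30.4 CPM in WT JZL184, 25.3, 26.3 and 31.0 CPM in CD VEH, and 16.8, 26.0 and 22 CPM in CD JZL184. Its groups overlapped except that CD VEH lay above WT VEH, and none of its direct comparisons was called.

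The microfibril and fibre surface genes are Fbn1, Mfap4, Mfap5 and Emilin1. Fbn1 (chromosome 2, 125300594-125507993, minus strand) codes for fibrillin-1, the backbone of the microfibril. It was at 63.4 and 55.4 CPM in WT VEH, 51.0, 66.7 and 70.5 CPM in WT JZL184, 66.2, 60.9 and 74.3 CPM in CD VEH, and 51.1, 61.9 and 60.4 CPM in CD JZL184. All pairs of groups compared overlapped, and no comparison of Fbn1 was called.

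Mfap5 (chromosome 6, 122505845-122529290, plus strand) codes for a small glycoprotein of the microfibril. It was at 13.2 and 13.5 CPM in WT VEH, 14.3, 27.5 and 18.4 CPM in WT JZL184, 19.8, 16.7 and 25.4 CPM in CD VEH, and 10.9, 12.9 and 11.3 CPM in CD JZL184. The CD JZL184 mice were below every mouse of the other groups. JZL184 against vehicle in CD mice gave -0.82 (SE 0.20, edgeR adjusted p = 0.0117), the largest fall among the members, which was lost without CD VEH mouse E (-0.63, edgeR adjusted p = 0.0559). CD JZL184 against WT JZL184 gave -0.77 (SE 0.20, edgeR adjusted p = 0.012).

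Mfap4 (chromosome 11, 61485431-61488900, plus strand) codes for a microfibril-associated glycoprotein that binds tropoelastin and fibrillin. It was at 5.94 and 5.25 CPM in WT VEH, 7.12, 16.3 and 7.95 CPM in WT JZL184, 5.47, 5.92 and 9.91 CPM in CD VEH, and 3.70, 5.5 and 4.29 CPM in CD JZL184. WT JZL184 mouse B stood well above the others. CD JZL184 against WT JZL184 gave -1.21 (SE 0.31, edgeR adjusted p = 0.0101), with -0.74 at the smallest when each mouse was left out, where it stayed called. Mapk7 lies across the gene on the opposite strand, at an average of 464 counts per mouse beside 317 to 1160 for Mfap4, so the level of Mfap4 may hold reads of Mapk7.

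Emilin1 (chromosome 5, 30913402-30921277, plus strand, far from the deletion) codes for a glycoprotein at the boundary of elastin and microfibril. It was at 16.1 and 18.6 CPM in WT VEH, 19.6, 27.4 and 25.2 CPM in WT JZL184, 19.1, 19.8 and 24.2 CPM in CD VEH, and 15.7, 20.1 and 17.2 CPM in CD JZL184. WT JZL184 was above WT VEH in every mouse (0.47, SE 0.15, edgeR adjusted p = 0.0384). That call was lost without WT JZL184 mouse B or D or either WT VEH mouse (0.37 to 0.58, edgeR adjusted p = 0.0861 to 0.236). CD JZL184 against WT JZL184 gave -0.44 (SE 0.13, edgeR adjusted p = 0.0231).

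The log2 fold-changes of JZL184 against vehicle were positive in WT mice and negative in CD mice for all 10 members. These comparisons use the same mice as the comparisons of genotype within a treatment and are not independent of them. In WT mice, JZL184 against vehicle raised 3 of 10 members (Fbln5, Lox and Emilin1) and lowered none, beside 29.4% of tested genes called and 15.4% called higher, and the median over the members was 0.43, against 0 over all tested genes. In 8 members every WT JZL184 mouse was above both WT VEH mice, beside 27.4% of tested genes. In CD mice it lowered 2 of 10 (Efemp2 and Mfap5) and raised none, beside 33.8% of tested genes called and 17% called lower, with a median of -0.33 against 0. In 4 members, Fbln5, Efemp2, Lox and Mfap5, every CD JZL184 mouse was below every CD VEH mouse, beside 27.3% of tested genes. For Eln, JZL184 against vehicle gave 0.32 in WT mice (SE 0.21, edgeR adjusted p = 0.262) and -0.45 in CD mice (SE 0.19, edgeR adjusted p = 0.0829), and neither was called. Without CD VEH mouse A the value in CD mice was -0.62 and called (edgeR adjusted p = 0.032), without each of the other CD mice it was -0.56 to -0.25 and not called, and DESeq2 called it (-0.45, adjusted p = 0.0413). The counts of members rest on few mice, and the counts over all genes moved with them. Without WT JZL184 mouse A, 8 members and 39.6% of all tested genes were called in WT mice, without mouse B 1 member and 18.5%, without WT VEH mouse C 0 and 4.93%, and without WT VEH mouse D 0 and 9.09%. In CD mice 0 members and 18% of genes were called without CD VEH mouse E, 1 and 21.6% without CD JZL184 mouse A, and 1 and 19% without CD JZL184 mouse E.

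**Figure D4:**
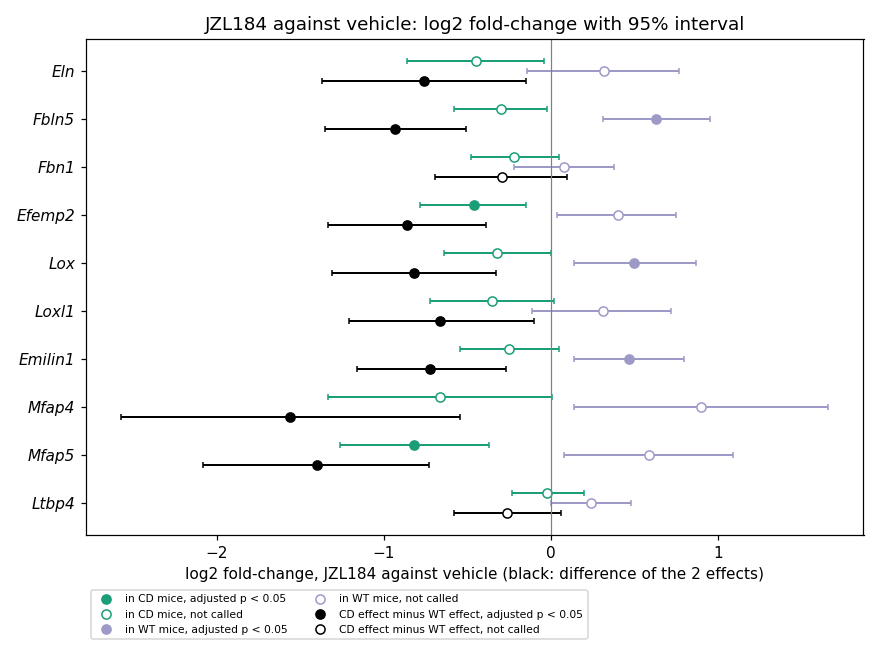
log2 fold-change of JZL184 against vehicle (horizontal axis) with 95% intervals in CD mice and in WT mice, and the difference of these effects in black; filled points are called at an adjusted p under 0.05. All 10 WT estimates lie above 0 (0.08 to 0.90) and all 10 CD estimates below it (-0.82 to -0.02).

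The difference between the JZL184 effects, tested as the interaction of genotype and treatment, was called for 8 of the 10 members, all with a lower effect in CD mice, beside 51.5% of tested genes called and 26.2% called in that direction. Fbn1 (-0.29, edgeR adjusted p = 0.192) and Ltbp4 (-0.26, edgeR adjusted p = 0.155) were not called. Mfap4 had the largest difference at -1.56 (SE 0.46, edgeR adjusted p = 0.0151) and Mfap5 followed at -1.40 (SE 0.31, edgeR adjusted p = 0.00302). Fbln5 had the smallest adjusted p (-0.93, SE 0.19, edgeR adjusted p = 0.00217), and Efemp2 was at -0.86 (SE 0.22, edgeR adjusted p = 0.00648). Fbln5, Efemp2 and Mfap5 stayed called without each mouse in turn. Eln itself was at -0.76 (SE 0.28, edgeR adjusted p = 0.0377) and lost the call in 7 of 11 fits that left out a mouse (-0.80 to -0.57, edgeR adjusted p = 0.0548 to 0.109; CD JZL184 mouse A, CD VEH mice C and E, WT JZL184 mice B and D, and WT VEH mice C and D), while without CD VEH mouse A it was -0.94 (edgeR adjusted p = 0.00995). The median over the members was -0.79, against -0.01 over all tested genes.

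Several markers of the cells that surround cardiomyocytes differed between the groups in the same direction as the members, though not all of them did. The summed level of 8 fibroblast markers was 1500 to 1510 CPM in WT VEH, 1720 to 2140 CPM in WT JZL184, 1600 to 1800 CPM in CD VEH and 1330 to 1510 CPM in CD JZL184. The 6 endothelial markers summed to 571 to 575, 868 to 903, 735 to 816 and 564 to 650 CPM in these groups, and the 7 vascular smooth muscle markers to 216 to 225, 237 to 272, 205 to 216 and 187 to 197 CPM. Under vehicle the smooth muscle sum was not higher in CD mice, while of its 5 tested markers Myh11 (0.70), Tagln (0.70) and Mylk (0.31) were called higher, Smtn (-0.35) was called lower and Acta2 (-0.15) was not called. The 5 pericyte markers summed to 832 to 837, 1020 to 1070, 929 to 1080 and 792 to 834 CPM. In the interaction, 6 of 8 fibroblast, 6 of 6 endothelial, 4 of 5 tested smooth muscle, 3 of 5 pericyte and 5 of 5 macrophage markers were lower, Smtn of the smooth muscle list (0.73) and Abcc9 of the pericyte list (0.59) were higher, and 3 of 6 cardiomyocyte markers were higher with 1 lower. In the genotype effect averaged over treatments, none of the markers of these 6 cell types was called, although 3 of the 5 tested smooth muscle markers had an unadjusted p under 0.05, against none of the fibroblast or endothelial markers, and their median log2 fold-changes were -0.10 for fibroblast, -0.05 for endothelial, -0.26 for smooth muscle, 0.01 for pericyte, -0.13 for macrophage and 0.01 for cardiomyocyte markers. Of the 5 skeletal muscle markers, 2 were tested, both of which heart muscle also expresses, and Acta1, skeletal alpha-actin, was lower in the averaged genotype effect (-2.03, SE 0.25, edgeR adjusted p = 0.00194), without overlap of the genotypes, as for Eln. Of the 4 atrial markers Nppa alone was tested, at -0.78 there (SE 0.25, edgeR adjusted p = 0.175, unadjusted p = 0.00972), and the atrial sum was 170 to 193 CPM in WT VEH, 111 to 221 CPM in WT JZL184, 50.4 to 147 CPM in CD VEH and 74 to 125 CPM in CD JZL184. Of the 6 epicardial markers Wt1 alone was tested, and it was lower in the interaction (-0.74, SE 0.23, edgeR adjusted p = 0.0168) and at -0.30 in the averaged effect (edgeR adjusted p = 0.241). The part of these markers in the Eln values was not tested. With the fibroblast marker level as a covariate, added after seeing the data, 0 of 10 members and 21 of 11319 genes were called in the interaction. Eln in the interaction, at -0.76 (SE 0.28) without a covariate, was 0.28 with this covariate (SE 0.43, edgeR adjusted p = 0.715). It was 1.16 with the endothelial level (SE 1.19, edgeR adjusted p = 0.994) and -1.52 with the smooth muscle level (SE 0.81, edgeR adjusted p = 0.244). The values of 0.28 and 1.16 lay less than their own SE from 0, so their sign is not settled. In the averaged genotype effect Eln was -1.01 with the fibroblast level (edgeR adjusted p = 0.00122). With the endothelial level the averaged effect was -1.04 (edgeR adjusted p = 0.00472), and with the smooth muscle level -1.32 (edgeR adjusted p = 0.0883), where the median SE over the members was 1.64 times that without the covariate. The part of the mitochondrial share in the interaction was not tested as a covariate, and with mitochondrial genes left out of the counts the interaction of Eln was -0.76 (edgeR adjusted p = 0.0391). The interaction also varied with transcript length, with a median log2 value of -0.27 over the shortest quartile of genes and 0.27 over the longest. With an offset for transcript length in each mouse, Eln in the interaction was -0.79 (edgeR adjusted p = 0.0344), and 10 of 10 members were called beside 47.4% of all genes tested in that fit.

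Eln was then set against its partners within each mouse. Per length (counts divided by the length of the longest coding transcript), Eln made up 11.4% and 11.9% of the summed level of the 10 genes in WT VEH, 11.8%, 11.5% and 10.8% in WT JZL184, 4.89%, 6.89% and 7.13% in CD VEH, and 4.98%, 5.71% and 5.83% in CD JZL184. The 5 WT mice had a mean share of 11.5% ± 0.432 (SD) and the 6 CD mice 5.90% ± 0.938 (SD), without overlap, and the lowest WT share was 1.51 times the highest CD share, where for CPM this was 1.31 times. Ltbp4, which has the highest level of the 10, made up between 42.7% and 51.9% of the sum of the group means. For 8 of 9 partners, the ratio of Eln to the partner was lower in all 6 CD mice than in any of the 5 WT mice, and with Mfap4 the ratios overlapped. The lowest WT ratio was between 1.19 (Lox) and 1.64 (Loxl1) times the highest CD ratio for these 8. Eln CPM alone separated the genotypes, so its ratio to any gene of steady level would separate them too. The share of all tested genes for which it does was not counted, so the count describes Eln and not the partners. The choice of length sets the size of the share but not the separation: with the union of exons the means were 7.15% and 3.60%, with ranges of 6.71% to 7.36% and 3.0% to 4.46%.

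**Figure D5:**
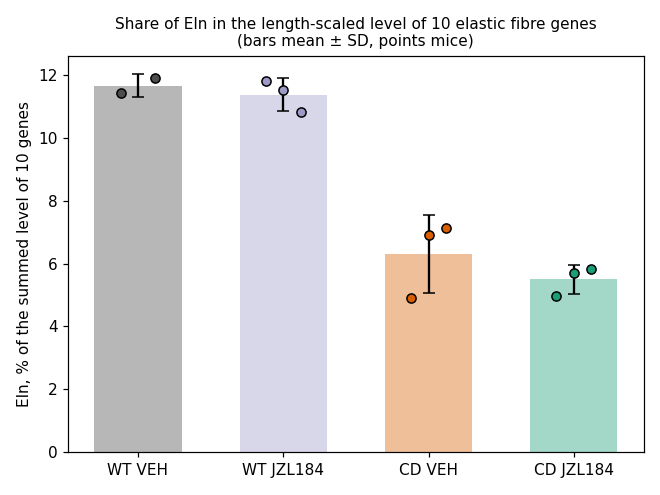
Share of Eln in the summed length-scaled level of the 10 genes (vertical axis, percent, from 0) in the 4 groups; points are mice, bars give the mean and error bars the SD. WT mice sit between 10.8% and 11.9% and CD mice between 4.89% and 7.13%.

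Per length of the longest coding transcript (TPM-like values: counts divided by length, then by the sum of such values over the genes of the mouse that have a length, mitochondrial genes left out, so not on the CPM scale), the order of the levels in WT VEH was Ltbp4 (133), Eln (33.6), Mfap5 (32.3), Loxl1 (25.5), Fbn1 (18.1), Emilin1 (16.4), Mfap4 (11.9), Fbln5 (9.02), Efemp2 (6.59) and Lox (2.10). Ltbp4 was first and Lox last in all 4 groups. Among the neighbours in this order, the ranges of Fbn1 (16.8 to 19.5) and Emilin1 (15.4 to 17.5) overlapped. Eln was second by its mean in WT VEH, the third in WT JZL184, the fifth in CD VEH and the sixth in CD JZL184, and with the union of exons it was the fourth, the fourth, the seventh and the eighth. In CD VEH the place by the longest transcript was not that of any mouse, with ranks of 6, 4 and 4 in mice A, C and E. The range of Eln there (13.2 to 24.1) spanned those of Fbn1 (17.9 to 21.8) and Emilin1 (16 to 22.1).

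All 9 partners lay on the same side of their group means in 5 of the 11 mice. WT JZL184 mouse B, CD VEH mouse E and CD JZL184 mouse C were above their group mean in all 9 partners on the log2 CPM scale, and WT JZL184 mouse A and CD VEH mouse C were above it in none. CD VEH mouse A had the largest deviation of Eln, at -0.40, with its partners at a mean of -0.07. The deviation of Eln from its group mean in the 5 mice named first was 0.26, 0.35, 0.22, -0.22 and 0.05, that of the mean fibroblast marker was 0.15, 0.08, 0.10, -0.19 and -0.10, and that of the mean smooth muscle marker was -0.02, -0.06, 0.06, 0.18 and 0.07, opposite in sign to the fibroblast value in 4 of the 5 mice. Over the 11 mice, deviations of Eln from its group means correlated with those of Loxl1 at r = 0.83, Emilin1 at r = 0.82, Mfap4 at r = 0.81 and Fbln5 at r = 0.75, with those of Mfap5 at r = 0.64, Ltbp4 at r = 0.62, Fbn1 at r = 0.59 and Efemp2 at r = 0.58, and with those of Lox at r = 0.28. Of 11318 ranked genes, 0.848% had a higher r with Eln than Loxl1, 0.972% than Emilin1, 1.14% than Mfap4 and 2.91% than Fbln5. For Mfap5 this was 7.73%, for Ltbp4 8.46%, for Fbn1 9.84%, for Efemp2 10.3% and for Lox 30.9%. These values describe 11 points that share library depth and tissue makeup. Being deviations from 4 group means, the points are not independent.

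Outside the members and the deletion, the genes whose deviations were most like those of Eln were Ppp2r5b (r = 0.98), which codes for a regulatory subunit of protein phosphatase 2A, an unnamed gene whose counts are identical to those of Ppp2r5b in every mouse and which adds nothing to it, Nacc1 (r = 0.97), a transcriptional repressor gene, Pmepa1 (r = 0.96), a gene induced by TGF-beta, and Tmem132a (r = 0.95). The Eln deviations of mouse A of CD VEH and mouse A of CD JZL184 lay farthest from the median deviation. Without these 2 mice, the r values of the named genes were 0.96, 0.96, 0.93 and 0.88. The genes were picked for the highest r from 11318 ranked genes, a choice that by itself yields high values. The mice kept were also used to pick them, so the second set of values is no independent check. The transcripts of Eln (GC content 58.8%), Ppp2r5b (59.0%), Nacc1 (57.7%) and Tmem132a (61.9%) lie above the upper quartile of tested genes (54.9%), and Pmepa1 (54.5%) just below it. None of the named genes was called in the averaged genotype effect, where Nacc1 was at 0.01 (SE 0.05) and Pmepa1 at -0.21 (SE 0.11).

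The wider set of elastic fibre genes was counted in the same comparisons. Of 18 further genes of fibre assembly, 12 were tested. In the averaged genotype effect 1 was called, beside 1.09% of tested genes. It was Fbln2, which codes for fibulin-2 of basement membranes and elastic fibres (-0.33, SE 0.07, edgeR adjusted p = 0.038), with 74.1 and 78.3 CPM in WT VEH, 82.3 to 106 CPM in WT JZL184, 69.7 to 77.2 CPM in CD VEH and 57.9 to 66.4 CPM in CD JZL184, where the genotypes overlapped. Under vehicle 2 were higher in CD mice, Vtn (vitronectin, 0.53, SE 0.08, edgeR adjusted p = 0.00288) and Mmrn2 (an endothelial multimerin, 0.45, SE 0.09, edgeR adjusted p = 0.00543), and none was lower, beside 30.4% of tested genes called and 15% called higher. Under JZL184 5 were lower, among them Vtn at -0.82 and Mmrn2 at -0.73, and 2 were higher, Furin at 0.31 and Emilin2 at 0.36, beside 38.3% of tested genes called and 20.1% called lower. JZL184 raised 2 in WT mice (Vtn at 0.78 and Mmrn2 at 0.67; 15.4% of tested genes were called higher), and in CD mice it lowered 4 (Vtn, Mmrn2, Loxl2 and Loxl3; 17% of tested genes were called lower) and raised Furin, the protease that activates many secreted precursors. The interaction was lower for 6 and higher for 2 (Furin and Ltbp1), beside 26.2% of tested genes called lower and 51.5% in either direction, with Vtn at -1.36 (SE 0.11, edgeR adjusted p = 5.27e-05).

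Of 16 genes for elastin-degrading enzymes, their inhibitors and the elastin receptor complex, 11 were tested, and none was called in the averaged genotype effect by edgeR, with 2 at an unadjusted p under 0.05. Timp2 at -0.24 and Timp3 at -0.19 had the smallest adjusted p (0.288 and 0.297). Timp3, an inhibitor of metalloproteinases held in the matrix, was lower in CD JZL184 than in WT JZL184 (-0.66, SE 0.10, edgeR adjusted p = 0.00124) and higher in WT JZL184 than in WT VEH (0.54, SE 0.12, edgeR adjusted p = 0.00809). Ctss, cathepsin S of macrophages, gave -0.90 (SE 0.19, edgeR adjusted p = 0.00433) and 0.81 (SE 0.22, edgeR adjusted p = 0.0187) in these comparisons. Of the 11, 4 were lower in CD mice under JZL184 (Timp3, Ctss, Timp2 and Ctsl; 20.1% of tested genes), 3 were higher with JZL184 in WT mice (15.4%), 2 were lower with it in CD mice (Timp3 and Ctss; 17%), and 6 had a lower interaction (26.2%). Under vehicle Ctss was higher in CD mice (0.62, SE 0.22, edgeR adjusted p = 0.05 after rounding, just under the threshold; 15% of tested genes were called higher). In each of these comparisons the rest of the 11 were not called. The macrophage markers given above moved with Ctss.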

How the data were processed

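Heart RNA of 11 mice was sequenced. The authors ran Salmon 0.7.2 against the GRCm38 transcripts of Ensembl release 85 (mm10 in the submitters' notes), summed transcripts to genes with tximport, and deposited estimated counts per gene without normalization. Columns carry the group and a letter that matches no sample number, so mice were not paired in the model, and the 11 columns were used with 0 left out. Mice were treated as biological replicates, as the labels say. After rounding of these expected counts, the quasi-likelihood test of edgeR 4.0.16 with TMM scaling (limma 3.58.1, R 4.3.3) was run on genes averaging 1 or more in log2 CPM, in a single model of 4 group means, with Benjamini-Hochberg adjustment over all 11319 tested genes and calls at an adjusted p under 0.05. The common biological coefficient of variation was 9.13%. SE values are the log2 fold-change divided by the square root of the F statistic. Positions, lengths and GC content came from GENCODE mouse release 21 (GRCm38), which matched 22315 of 22608 identifiers. The steps were tested on simulated counts.

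The members and gene lists, and the rule for named genes, were chosen with earlier results of these data known. That rule took all 10 members, up to 4 genes with the smallest adjusted p of each other list and the 5 genes with the highest correlation with Eln in deviations from group means. Clip2, Baz1b, Fkbp6, Trim50, Smtn, Acta2 and Abcc9 were named after their values were seen. Alternatives were DESeq2 1.42.0, RLE and upper quartile factors, no filter, at least 10 counts in every mouse, no mitochondrial genes, offsets for length and GC content (loess, span 0.5), only the compared groups, leaving out each mouse, and, added after seeing the data, 3 marker covariates and the column letter as a block. Floors of 3 counts cover counting error only.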

Additional observations from a re-analysis of the deposited data

Results flagged for a closer look

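The effect of JZL184 differed between the genotypes for 8 of the 10 elastic fibre genes, by edgeR's test of the interaction itself. The difference of the effects (CD minus WT, log2 scale) was -0.76 for Eln (adjusted p = 0.0377), -0.93 for Fbln5 (adjusted p = 0.00217), -0.86 for Efemp2 (adjusted p = 0.00648), -0.82 for Lox (adjusted p = 0.0095), -0.66 for Loxl1 (adjusted p = 0.0467), -0.72 for Emilin1 (adjusted p = 0.0118), -1.56 for Mfap4 (adjusted p = 0.0151) and -1.40 for Mfap5 (adjusted p = 0.00302). The interaction was called for 51.5% of all tested genes. Eln lost the call in 7 and Loxl1 in 9 of 11 fits that left out a mouse, Emilin1 without WT VEH mouse C (-0.62, adjusted p = 0.062), and Lox (-0.66, adjusted p = 0.0591) and Mfap4 (-1.47, adjusted p = 0.0612) without WT VEH mouse D.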

How the results depend on the processing

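With 2 WT VEH mice and 3 in each other group, single mice decide many calls. The columns carry letters and no replicate numbers, and no label says that a letter pairs mice. Deviations from group means correlated over 0.1 in 1 of 8 pairs of mice with the same letter (-0.25 to 0.31) and in 11 of 37 with different letters. With the letter as a replicate block, chosen after seeing the data, 3, 3, 6, 1, 1 and 8 members (21.2%, 10.4%, 34.6%, 5.22%, 0.601% and 40.3% of all genes) were called in CD VEH against WT VEH, CD JZL184 against WT JZL184, CD JZL184 against CD VEH, WT JZL184 against WT VEH, the averaged effect and the interaction, and Eln was called in CD JZL184 against CD VEH (-0.44, adjusted p = 0.012). In the averaged genotype effect Eln kept its direction and call under 8 other tools, scalings, filters and offsets (-1.15 to -1.11) and 11 fits without a mouse (-1.22 to -1.04).

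The count of members called in CD VEH against WT VEH was 1, and 2 with DESeq2, upper quartile factors, no filter or the length offset (16.8% to 34.6% of genes), 4 with only the compared groups (35%), 0 with the smooth muscle (21%) or endothelial covariate (1 gene), and 0 to 2 without a mouse (3.4% to 31.2%). Eln there was -0.56 (adjusted p = 0.162) with the smooth muscle and -1.62 (adjusted p = 0.999) with the endothelial covariate, and -0.93 to -0.57 without a mouse. In CD JZL184 against WT JZL184 the count was 7, 0 with each covariate (72, 4 and 1 genes with the fibroblast, smooth muscle and endothelial level) and 5 to 9 without a mouse (26.1% to 43%), and Eln was -0.87, -2.07 and -0.46 in that order, none called. In CD JZL184 against CD VEH the count was 2, 4 with the length offset (26.2%) or only the compared groups (41.4%), 0 with each covariate (0 of all genes in each) and 0 to 3 without a mouse (18% to 34.5%). Eln was called there with DESeq2 (-0.45, adjusted p = 0.0413) and without CD VEH mouse A (-0.62, range without a mouse -0.62 to -0.25), and turned to 0.25 with the endothelial covariate. In WT JZL184 against WT VEH the count was 3, 1 with only the compared groups (14.6%), 0 with each covariate (11, 1 and 0 genes) and 0 to 8 without a mouse (4.93% to 39.6%), and Eln turned to -0.29 and -0.91 with the fibroblast and endothelial covariates. In the averaged effect the smooth muscle covariate left 0 members and 18 genes called (Eln -1.32, adjusted p = 0.0883), and DESeq2 called 3.9% of genes, edgeR 1.09%. In the interaction the count was 8, 0 with each covariate (21, 1 and 0 genes) and 4 to 10 without a mouse (40.4% to 56.5%), and Eln was 0.28, -1.52 and 1.16 with the fibroblast, smooth muscle and endothelial covariates and -0.94 to -0.57 without a mouse. The Eln share moved to 3.60% in CD and 7.15% in WT mice with the union of exons. The endothelial covariate raised the median SE of the members to up to 3.79 times that without it. The smooth muscle covariate raised it to up to 3.11 times, in CD JZL184 against WT JZL184, where Eln was -2.07 (SE 0.6). The SE of Eln with the endothelial covariate was 0.45 in CD JZL184 against CD VEH, 0.76 in WT JZL184 against WT VEH and 1.19 in the interaction. With the fibroblast covariate it was 0.27 in WT JZL184 against WT VEH and 0.43 in the interaction. Otherwise the cause was not tested.

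With the fibroblast and endothelial covariates the sign changed for 9 and 9 of 9 partners under vehicle, 7 and 8 under JZL184, 6 and 8 with JZL184 in CD mice, 7 and 8 in WT mice, 5 and 4 in the averaged effect, and 7 and 8 in the interaction, and with the smooth muscle covariate for 1 under vehicle, 1 in the averaged effect and 0 elsewhere. Of 864 values of the partners without covariates or block, 785 kept direction and call, 37 lost and 28 gained a call, and 14 uncalled values turned sign: under vehicle Ltbp4 -0.05 (GC offset) and Lox -0.08 (without WT VEH D, range -0.08 to 0.27); with JZL184 in CD mice Ltbp4 0.00 (GC offset), 0.08 (without CD JZL184 A) and 0.00 (without CD VEH A); in WT mice Fbn1 -0.01 and -0.02 (without WT JZL184 D or WT VEH D, highest 0.21); and in the averaged effect Efemp2 0.02 and 0.01 (lowest -0.11), Loxl1 0.00 (lowest -0.16), Mfap5 0.07 (lowest -0.17), and Fbn1 -0.01, -0.04 and -0.02, all without a mouse.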
